A study of Rattus norvegicus with 36 samples.

Results

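Liver RNA of rats given the highest dose of decabromodiphenylethane (DBDPE), a brominated flame retardant, was compared with that of rats given vehicle. The comparison used the 12 arrays labelled as 970 mg/kg (6) or vehicle (6), out of 36 in the series, and every probe set other than the array's own controls, which left 31042 of 31099. All animals were male Harlan Sprague Dawley rats aged 7 weeks at the start, fed NTP-2000 diet, and dosed through a stomach tube with 5 ml/kg corn oil on 5 consecutive days. The oil held 970 mg/kg DBDPE or none, and the left liver lobe was taken 1 day after the last dose. Other groups of the series received 0.1, 0.97, 9.71 or 97.1 mg/kg and entered the model for their spread between animals. The labels number the arrays within a group, and each was taken as 1 rat, so that p-values measure the spread between these arrays. The comparison covers 1 sex, 1 strain, 1 lobe and 1 time.

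Signals were log2 values per probe set, and 20826 probe sets name 1 gene, 436 name several and 9780 name none, covering 14217 genes. The tissue matched its label: of 11 hepatocyte markers 10 were measured, all above the median probe set, with albumin (Alb) between 14.64 and 14.68 in the 12 animals, beside a highest value of 14.68 in the whole table. Array medians lay between 5.07 and 5.12. The beta-actin controls, 3′ minus 5′ on the log2 scale, a measure of RNA integrity, differed by 1.05 to 1.22 in vehicle and 1.10 to 1.33 at 970 mg/kg. The mean distance of an array to the vehicle arrays was 42.2 to 45.8 for vehicle and 42.5 to 45.1 for 970 mg/kg. Within the 970 mg/kg group, replicate 4 lay furthest from the other treated arrays, at 46.0 where the other 5 were at 39.3 to 42.3, and it had the lowest array weight of the 12 (0.717).

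The aryl hydrocarbon receptor (AhR) is a ligand-activated transcription factor that, together with its partner Arnt, binds DNA at a short core motif and switches on cytochrome P450 genes of the Cyp1 family. Cyp1a1 is nearly silent in untreated liver, whereas Cyp1a2 is abundant there, mostly in hepatocytes around the central vein. Other liver receptors have their own marker genes, such as Cyp2b and Cyp3a genes for the constitutive androstane and pregnane X receptors (CAR and PXR) and Cyp4a genes for PPARalpha. The mitotic cyclins and their kinase are low in resting adult liver, since few hepatocytes divide, and their promoters often carry CCAAT boxes.

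The upstream sequences of 4 genes are shown from the 2 groups of transcripts described here, the Cyp1a genes and the mitosis genes. Cdc20 and Melk were taken as the 2 other mitosis genes of smallest limma p whose window lies outside their own annotated gene. Each run is the 250 bases before the annotated start from RefSeq (GRCr8), on the strand of the gene, with CCAAT or its reverse complement ATTGG, and GCGTG or its reverse complement CACGC, in capitals. Cyp1a2 (Entrez 24297, chr8:66971261-66978149, minus strand) has the window chr8:66978150-66978399. Ccnb1 (Entrez 25203, chr2:33646252-33655225, minus strand) has chr2:33655226-33655475, Cdc20 (Entrez 64515, chr5:137251596-137255799, minus strand) has chr5:137255800-137256049, and Melk (Entrez 362510, chr5:63336151-63396254, plus strand) has chr5:63335901-63336150.
Cyp1a2: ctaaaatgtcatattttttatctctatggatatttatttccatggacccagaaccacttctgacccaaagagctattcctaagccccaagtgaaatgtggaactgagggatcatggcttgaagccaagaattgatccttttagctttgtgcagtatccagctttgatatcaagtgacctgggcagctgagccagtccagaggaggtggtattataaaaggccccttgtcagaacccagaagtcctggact
Ccnb1: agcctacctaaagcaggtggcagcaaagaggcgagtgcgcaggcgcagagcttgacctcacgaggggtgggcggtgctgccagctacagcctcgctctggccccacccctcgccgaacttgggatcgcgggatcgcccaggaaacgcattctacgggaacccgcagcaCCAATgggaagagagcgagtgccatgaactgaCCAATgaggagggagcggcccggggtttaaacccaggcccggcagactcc
Cdc20: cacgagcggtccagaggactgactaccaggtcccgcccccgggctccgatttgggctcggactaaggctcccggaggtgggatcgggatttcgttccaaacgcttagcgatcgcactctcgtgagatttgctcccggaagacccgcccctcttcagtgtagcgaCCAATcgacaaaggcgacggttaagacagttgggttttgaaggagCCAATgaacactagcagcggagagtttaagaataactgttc
Melk: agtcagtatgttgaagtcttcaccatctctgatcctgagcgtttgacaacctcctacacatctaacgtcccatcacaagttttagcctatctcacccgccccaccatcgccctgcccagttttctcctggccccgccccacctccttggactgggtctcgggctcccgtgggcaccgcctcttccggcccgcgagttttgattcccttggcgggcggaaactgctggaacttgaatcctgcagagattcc
Ccnb1 carries CCAAT at 82 and 50 bases before its start, and Cdc20 at 86 and 41 bases. The windows of Cyp1a2 and Melk hold neither motif, which says only that these letters are not in these 250 bases. Cyp1a1 (Entrez 24296) lies at chr8:66991940-66998014, close to Cyp1a2.

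Cyp1a1 and Cyp1a2 rose at 970 mg/kg, and no other probe set passed the test. These 2 of 31042 probe sets are 0.00644% (limma, Benjamini-Hochberg adjusted p under 0.05), and 0 fell. An adjusted p under 0.1 also gave 2. At an unadjusted p under 0.05 there were 1513 probe sets, 740 higher at 970 mg/kg (2.38% of all) and 773 lower, so that an unadjusted p alone is not treated as a change. The median log2 fold change over all probe sets was -0.004, with 48.1% above 0.

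**Figure D1:**
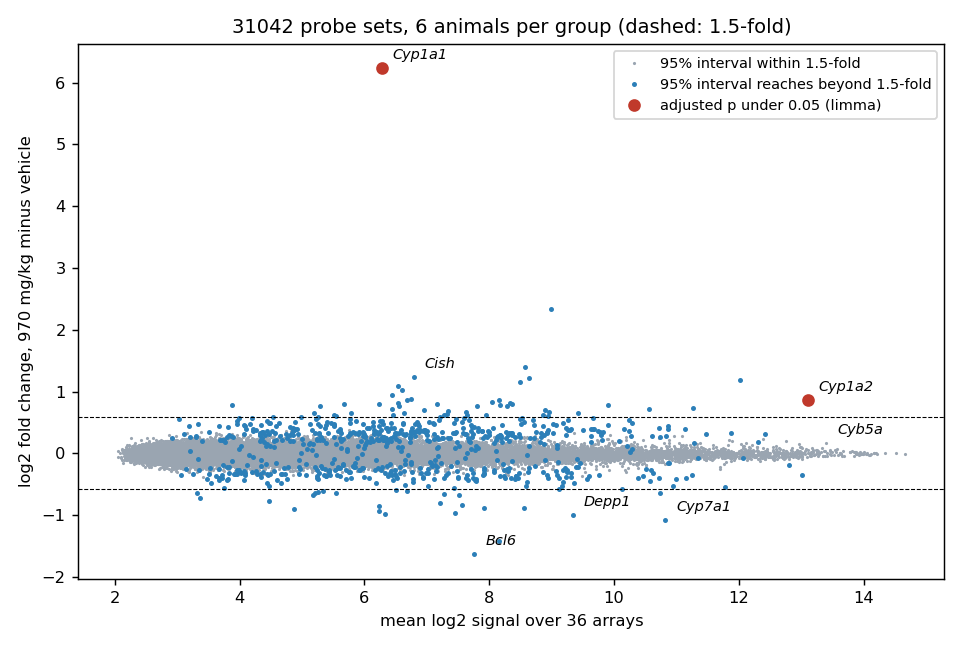
Each point is 1 of 31042 probe sets, with the mean log2 signal over 36 arrays on the horizontal axis and the log2 fold change of 970 mg/kg (n = 6) over vehicle (n = 6) on the vertical axis; dashed lines mark 1.5-fold. Red points are the 2 that passed limma, Cyp1a1 and Cyp1a2; grey points are the 30347 whose 95% interval lies within 1.5-fold, and blue points have intervals that reach beyond it.

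In vehicle, the Cyp1a1 log2 signals of replicates 1 to 6 were 4.35, 4.57, 4.71, 4.76, 4.51 and 4.54, and at 970 mg/kg they were 10.30, 11.09, 10.02, 11.81, 10.64 and 10.98. The lowest treated rat thus exceeded the highest vehicle rat by more than 5 log2 units, and the treated rats spread far more than the vehicle rats. The fold change was 75.2 (log2 6.23, 95% interval 5.66 to 6.80, limma adjusted p = 9.19e-18). For Cyp1a2 the vehicle signals were 12.80, 12.91, 12.91, 12.74, 12.58 and 12.93, and the treated signals were 13.58, 13.78, 13.59, 13.74, 13.65 and 13.69. Its fold change was 1.82 (log2 0.86, 0.74 to 0.99, limma adjusted p = 9.91e-12). The Cyp1a2 signal lies near the top of the array's range and the vehicle Cyp1a1 signal below every array median, so both folds may understate the change in RNA. Replicate 3 had the lowest treated Cyp1a1 signal and replicate 4 the highest, and replicates 1 and 3 had the lowest treated Cyp1a2 signals.

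The remaining AhR battery did not pass. Of its 8 listed genes 7 were measured, the Cyp1a pair and 5 others. Tiparp, an AhR-induced ADP-ribosyltransferase that dampens the receptor, had a log2 fold change of 0.33 (0.02 to 0.64), with treated signals of 8.22 to 8.67 inside the vehicle range of 7.84 to 8.76. Nqo1, a quinone reductase, had 0.68 (-0.02 to 1.38). Its vehicle signals were 7.33, 7.35, 7.55, 7.30, 8.96 and 7.14 and its treated signals were 7.97, 8.15, 8.32, 7.78, 7.71 and 9.75. All 6 treated rats therefore exceeded 5 of the 6 vehicle rats, while vehicle replicate 5 exceeded 5 of the 6 treated rats, and neither Tiparp nor Nqo1 could be bounded. Cyp1b1, another AhR-inducible P450, had -0.05 (-0.24 to 0.15), the repressor Ahrr had 0.04 (-0.15 to 0.22) and the aldehyde dehydrogenase Aldh3a1 had -0.08 (-0.23 to 0.08), each bounded within 1.5-fold. A response is called bounded here where its 95% interval lies inside a 1.5-fold change in either direction. Cyp1b1 signals lay around the array medians, from 4.89 to 5.45 in the 12 rats. Aldh3a1 was not above 3.62 in any of them, where a narrow interval of the signal says little about the transcript. Averaged over all arrays of the series, Cyp1b1, Ahrr and Aldh3a1 were all below the median level. The Ahrr interval may therefore bound the signal more than the transcript. Of the receptor's machinery, Ahr had 0.13 (-0.22 to 0.48), Arnt 0.01, and the chaperones Hsp90ab1 and Ptges3 0.02 and 0.06, and all 4 measured were bounded.

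The smallest p after the Cyp1a pair belonged to Cyb5a, which encodes cytochrome b5, an electron donor to P450 enzymes of the endoplasmic reticulum. Its vehicle signals were 13.28, 13.36, 13.42, 13.34, 13.35 and 13.34 and its treated signals were 13.47, 13.62, 13.46, 13.54, 13.53 and 13.50. The groups did not overlap, yet the gap between the nearest rats was small, and the difference was 0.17 (0.10 to 0.24), or 1.12-fold (limma adjusted p = 0.327). It passed with an intensity-dependent robust variance prior (limma adjusted p = 0.00269) and with variances not moderated across genes (adjusted p = 0.00153), at the same size. It is thus bounded within 1.5-fold whether or not it is called. Its signal lies near the top of the array's range, so this bounds the signal more than the transcript. The Cyb5a mean was 13.44 at 97.1 mg/kg (13.35 to 13.49) and between 13.36 and 13.37 at the 3 lower doses, beside 13.35 in vehicle and 13.52 at 970 mg/kg; these groups are set against the same vehicle arrays.

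The partners of Cyb5a in microsomal electron transfer had values close to 0. Por, the P450 reductase, had -0.09 (-0.42 to 0.24), and the cytochrome b5 reductases Cyb5r3 and Cyb5r4 had 0.04 and -0.02; all 5 measured of 6 were bounded. Heme supply was bounded throughout, with 10 of 10 measured genes inside 1.5-fold. Alas1, the rate-limiting enzyme of heme synthesis, had 0.03 (-0.35 to 0.42), and the later enzymes Alad, Urod and Fech had -0.05, -0.04 and -0.04. Hmox1, which breaks heme down, had 0.26 (0.08 to 0.44, limma adjusted p = 0.966). Its vehicle signals ran from 8.05 to 8.41 and its treated signals from 8.41 to 8.71, so that the groups met without overlapping. The Hmox1 mean was also above the vehicle mean of 8.27 in every lower dose group, from 8.40 to 8.47, with the vehicle arrays shared by all of these differences.

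**Figure D2:**
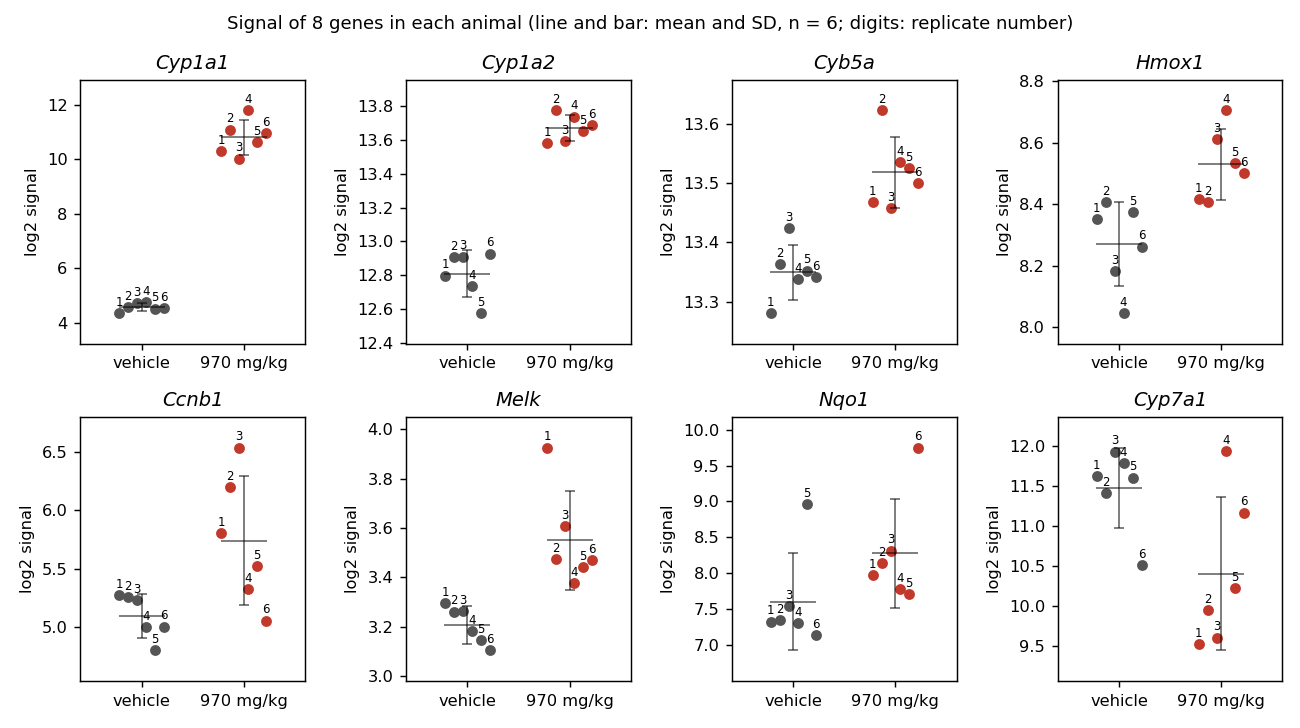
Log2 signal (vertical axis of each panel, with its own scale) of 8 genes in the 6 vehicle rats (grey) and 6 rats at 970 mg/kg (red); digits are replicate numbers, and black lines and bars are the mean and SD. Cyp1a1, Cyp1a2, Cyb5a, Hmox1 and Melk do not overlap between groups, Ccnb1 overlaps in replicate 6, and in Nqo1 and Cyp7a1 1 vehicle rat lies far from the other vehicle rats.

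Complete separation of the groups was rare. Of 31042 probe sets, 36 (0.116%) had all treated rats above every vehicle rat and 26 (0.0838%) had all below, and 28 and 19 of these name 1 gene. With 6 rats in each group, shares of about this size arise without any effect, so separation alone is not treated as a change. Beyond 1.5-fold there were 2 above, the Cyp1a pair, and 0 below. Among those above, the smallest p after the Cyp1a pair and Cyb5a belonged, in order, to Melk, Smc2, Runx1, Sftpa1 and Smc4. Melk, a kinase gene of dividing cells, had 0.34 (0.17 to 0.51). Smc2 and Smc4, the paired core subunits of the condensin complexes that compact mitotic chromosomes, had 0.47 (0.23 to 0.70) and 0.32 (0.15 to 0.49). Smc2 signals were 5.12 to 5.55 in vehicle and 5.55 to 5.97 at 970 mg/kg, and Smc4 signals were 4.43 to 4.82 and 4.85 to 5.33. A second Smc4 probe set had 0.16 with 1 of 6 treated rats above the vehicle range. The kinetochore motor gene Cenpe, named after its values were seen, also separated (0.27). Runx1, a transcription factor of blood cells, had 0.37 with signals of 4.71 to 5.03 against 4.32 to 4.66, but its other probe set had -0.07, and the lung surfactant gene Sftpa1 had 0.30 in 1 probe set and -0.05 in the other. None of these passed limma (adjusted p = 0.803 for Smc2, Smc4, Melk and Runx1). The lower doses, against the same vehicle arrays, gave the separated probe sets of Cenpe 0.09 to 0.28 and of Sftpa1 0.14 to 0.31. The highest Cenpe value was that at 0.1 mg/kg. Runx1 had 0.16 to 0.27 at these doses, Melk 0.10 to 0.26, Smc4 0.06 to 0.14 and Smc2 0.01 to 0.11. Averaged over the 36 arrays, Smc2 alone of these separated probe sets reached the median level.

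Below every vehicle rat lay Bicral, a chromatin remodelling subunit (-0.39, -0.58 to -0.20), with -0.22 and -0.06 in its 2 other probe sets. Jarid2, a Polycomb partner, had -0.29, and -0.20 and -0.09 in its others. The matrix metalloproteinase Mmp16 had -0.32, the endocytic adaptor Dab2 -0.20, and Bag3, a co-chaperone of Hsp70, -0.23. Against the same vehicle arrays, Mmp16 also had -0.39 at 97.1 mg/kg and -0.36 at 0.1 mg/kg, and Dab2 had -0.13 and -0.16. Bag3 signals were 8.08 to 8.29 in vehicle and 7.85 to 8.05 at 970 mg/kg. All of these were bounded within 1.5-fold and none passed limma (adjusted p of 0.803 to 0.966).

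Mitosis genes had values above 0 throughout, though none passed limma over all probe sets. Of 35 listed genes 32 were measured and 32 of 32 were higher at 970 mg/kg, with a median log2 fold change of 0.35 beside -0.004 over all probe sets. An unadjusted p under 0.05 was met by 24 of the 32, against 2.38% of all probe sets in that direction. It was met by 20 of 32 when the 12 samples were fitted alone. The list was known from earlier results of these data to stand apart, so its counts are a description. Without replicate 3 of the 970 mg/kg group 10 of 32 met that p, 31 were above 0 and the median was 0.26. Only 16 of the 32 were bounded within 1.5-fold, so the others could be neither called nor limited to a small change.

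By role, the B cyclins, which activate Cdk1 at entry into mitosis, had 0.65 (Ccnb1, 0.29 to 1.01; 0.33 in its second probe set) and 0.62 (Ccnb2, 0.18 to 1.07). Ccna2 and Cdk1 itself had 0.59 and 0.51. Ccnb1 signals were 5.28, 5.25, 5.23, 5.00, 4.80 and 5.00 in vehicle and 5.80, 6.20, 6.54, 5.33, 5.52 and 5.06 at 970 mg/kg. Replicates 1, 2 and 3 were clearly higher, 4 and 5 only just above the vehicle range, and 6 was within it. The Ccnb1 SD was 0.56 at 970 mg/kg and 0.19 in vehicle. The model shares 1 spread among the groups, so the Ccnb1 interval may be too narrow. The second Ccnb1 probe set had 3 of 6 treated rats above its vehicle range and 2, replicates 4 and 6, below it. Cdkn3, a Cdk-binding phosphatase and the member of largest difference, had 0.72 (0.15 to 1.28), with treated signals of 7.64, 7.46, 8.20, 7.07, 7.07 and 5.84 against 5.74 to 7.21. Cdc20, which activates the anaphase-promoting complex, had 0.52 (0.20 to 0.83), with treated signals of 6.89, 6.96, 7.53, 6.38, 6.61 and 6.02 against 5.97 to 6.42. Spindle checkpoint and segregation kinases ranged from Bub1 (0.57) and Aurkb (0.48) through Aurka (0.26) to Ttk (0.13) and Plk1 (0.11, -0.07 to 0.30). The kinetochore protein Cenpf had 0.36 and the proliferation marker Mki67 0.36. Foxm1, the transcription factor of many of these genes, had the smallest difference of the list, 0.07 (-0.07 to 0.21). Apart from Ccnb1, Ccnb2, Cdkn3, Melk, Cenpf and Mki67, single mitosis genes were named after their values were seen.

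The rats at 970 mg/kg differed widely from each other in these genes. A score was taken as the average, over the list, of each gene's distance from its vehicle mean on the log2 scale. The treated scores were 0.52, 0.56, 0.92, 0.11, 0.26 and -0.16 for replicates 1 to 6, against -0.11 to 0.20 in vehicle. Thus 4 of 6 treated rats lay above the vehicle range, 1 inside it and 1 below it. Gene by gene, replicate 1 exceeded every vehicle rat in 29 of 32 genes, replicate 2 in 26 and replicate 3 in 30, but replicate 5 in 14, replicate 4 in 4 and replicate 6 in 1. Replicate 6 was below every vehicle rat in 9, or 28.1% of the genes. Over all probe sets a treated rat exceeded every vehicle rat in 12.4% to 14.5% and was below every one in 12.5% to 15.7%, with 13.9% below for replicate 6. Replicate 3 also had the highest neutrophil marker score of the treated rats, 0.67 against -0.10 to 0.07 in vehicle. In that rat S100a8 and S100a9, which encode abundant cytosolic proteins of neutrophils, had signals of 6.41 and 7.85, where the other treated rats had at most 4.44 and 6.01. Its part in the mitosis values was not tested, and the mitosis median without replicate 3 was 0.26.

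**Figure D3:**
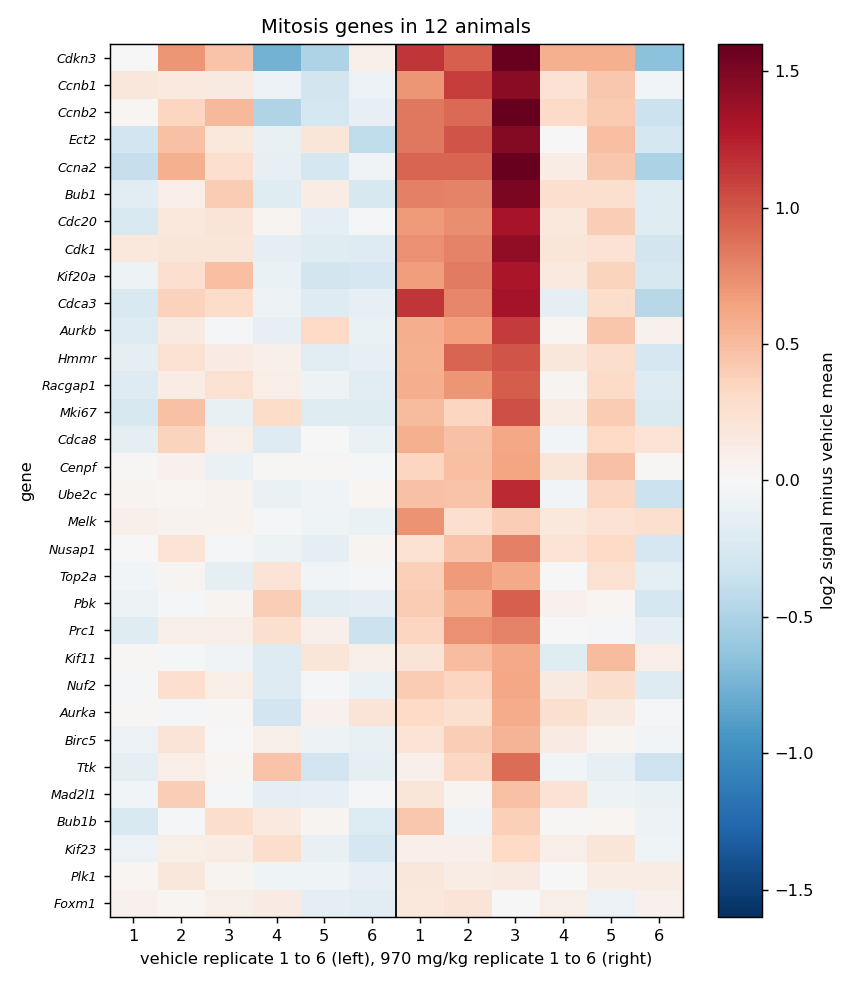
Rows are the 32 measured mitosis genes, ordered by log2 fold change from Cdkn3 (0.72) to Foxm1 (0.07), and columns are the 12 rats, vehicle on the left and 970 mg/kg on the right; color is the log2 signal minus the vehicle mean of the gene. Replicates 1, 2 and 3 of the 970 mg/kg group are red in nearly all rows, replicate 5 is paler, and replicates 4 and 6 are near or below the vehicle level.

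RefSeq promoters were found for 25 of the 32 mitosis genes. These windows were not required to lie outside the annotated gene. CCAAT on either strand was present in the 250 upstream bases of 19 of the 25, against 34.6% of the 13242 promoters of all genes measured and 34.0% of all 33469 in the table. TTTGAA on either strand, the cell cycle homology element, was in 11 of 25 against 11.3% of measured genes, and it lies 51 bases before the Cdc20 start, beside the CCAAT at 41. The AhR core GCGTG was in 9 of 25 against 39.6%. These matches describe the letters upstream of the genes and show no binding.

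Genes of the preceding cell cycle phases had values nearer to 0. Of 26 listed genes of G1 and DNA replication 23 were measured, 20 were above 0 with a median of 0.06, and all 23 were bounded within 1.5-fold. The median was 0.10 with treated replicate 4 left out and 0.11 with treated replicate 6 left out. The replicative helicase subunits Mcm4 and Mcm6 had 0.28 (0.11 to 0.45) and 0.26 (0.00 to 0.51). Thymidine kinase Tk1 had 0.14, the sliding clamp Pcna 0.05 and thymidylate synthase Tyms -0.10. Cyclin D1 (Ccnd1) had -0.21 (-0.58 to 0.16). The scores were 0.03, 0.12, 0.22, 0.09, 0.03 and -0.03 against -0.02 to 0.06 in vehicle, so that replicate 3 was again highest and replicate 6 lowest.

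Outside the cell cycle, the estimates furthest from 0 came with wide intervals. Beyond 2-fold there were 12 probe sets, 9 of which name 1 gene, and Cyp1a1 was the one that passed. Cyp7a1, whose enzyme sets the pace of making bile acids from cholesterol, had -1.07 (-1.85 to -0.30, limma adjusted p = 0.966). Its vehicle signals were 11.62, 11.41, 11.93, 11.78, 11.60 and 10.52 and its treated signals were 9.53, 9.95, 9.61, 11.94, 10.22 and 11.16. Replicates 1, 2, 3 and 5 were below every vehicle rat, and replicate 4 was the highest of the 12. At 97.1, 9.71, 0.97 and 0.1 mg/kg Cyp7a1 had -0.90, -0.92, -0.35 and -0.68 against the same vehicle arrays. Nr0b2 (SHP), the repressor through which bile acids shut off Cyp7a1, had -0.89 (-1.65 to -0.12), with treated signals of 7.80, 8.23, 7.51, 9.97, 7.87 and 6.90 against 8.30 to 9.51. Here 5 of 6 treated rats were below the vehicle range and replicate 4 above it. The other 13 of the 15 bile acid genes were bounded, such as the exporter Abcb11 (0.02), the uptake carrier Slc10a1 (-0.05) and the bile acid receptor Nr1h4 (-0.13).

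Genes that follow growth hormone pulses and feeding varied widely in both groups. The signalling inhibitors Cish and Socs2, which growth hormone induces, had 1.24 (0.13 to 2.35) and 0.76 (-0.12 to 1.64). A second Cish probe set had 1.03 (-0.24 to 2.30). The repressor Bcl6, which growth hormone lowers, had -1.64 (-3.07 to -0.20). In vehicle, Bcl6 signals were 8.99, 9.99, 10.37, 9.91, 7.59 and 7.50 and Cish signals were 5.33, 6.77, 5.36, 5.33, 8.04 and 8.09, so that vehicle replicates 5 and 6 held the lowest Bcl6 and the highest Cish. The treated rats had Bcl6 signals of 6.52 to 9.05 and Cish signals of 6.67 to 8.33, so that both genes overlapped between groups. At 97.1, 9.71, 0.97 and 0.1 mg/kg Bcl6 had -1.98, -2.75, -0.56 and -0.86 against the same vehicle arrays. Cish had 0.64, 0.48, -0.74 and 0.19 at these doses. The slower products of the same hormone were tightly bounded, namely Igf1 at 0.01 (-0.07 to 0.09), the male-specific P450 Cyp2c11 at 0.01 (-0.09 to 0.11) and Cyp3a2 at 0.03 (-0.06 to 0.11). The vehicle means of Cyp2c11 (13.39) and Cyp3a2 (13.75) lie near the top of the array's range, so these 2 intervals bound the signal more than the transcript.

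Depp1, a gene induced in fasting, had -0.99 (-1.50 to -0.49, limma adjusted p = 0.803). Its vehicle signals were 9.99, 10.26, 9.98, 9.84, 8.88 and 9.14 and its treated signals were 8.41, 8.57, 9.45, 8.61, 8.43 and 8.68, so that 5 of 6 treated rats lay below the vehicle range. Of 14 measured genes of the glucocorticoid and fasting response 6 were bounded, with a median of -0.02 that ran from -0.12 (without treated replicate 4) to 0.05 with 1 array left out. Pck1 of gluconeogenesis had -0.36 (-0.77 to 0.05) and Pdk4, which spares glucose, had 0.42 (-0.20 to 1.04). Among 16 measured clock genes 11 were bounded. The repressors Nr1d1 and Nr1d2 had -0.61 (-1.10 to -0.12) and -0.47 (-0.87 to -0.07), and the output factor Dbp had -0.63 (-1.19 to -0.07). The core genes Bmal1, Clock and Per2 had 0.06, 0.09 and 0.01. The labels used here give no hour of collection.

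Interferon response genes could mostly not be bounded. Of 26 measured, 24 were above 0 with a median of 0.32, 2 met an unadjusted p under 0.05 and 8 were bounded. Usp18, the feedback inhibitor of interferon signalling, had 0.94 (0.05 to 1.83), with vehicle signals of 7.17, 6.67, 5.48, 5.07, 5.26 and 5.24 and treated signals of 6.37 to 6.99, all inside the vehicle range. The treated scores ran up to 0.51 and 0 of 6 left the vehicle range of -0.31 to 0.65.

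Several classic liver responses were bounded at this dose. Over all probe sets, 30347 (97.8%) had intervals within 1.5-fold and 30885 (99.5%) within 2-fold; of the 695 not within 1.5-fold, 617 had an estimate inside it. The median probe set had an interval of 0.16 on either side. Among listed genes, which include many that vary between rats, 325 of 412 measured (78.9%) were bounded, below the share over all probe sets. In 12 of 34 lists every measured gene was bounded, and in 6 of these every gene was also at or above the median signal: microsomal electron transfer, heme, heat shock (11 of 11), sterol synthesis (16 of 16), hepatocyte and endothelial markers. These bounds concern group means. In sterol synthesis treated replicate 1 was below every vehicle rat in 10 of 16 genes, beside 13.5% of all probe sets. Replicate 4 was above every vehicle rat in 8 of 16, beside 14.5%.

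Markers of the other xenobiotic receptors lay close to vehicle. Of 17 measured CAR and PXR targets 16 were bounded, with a median of 0.03, or 0.02 to 0.06 with 1 array left out. Above 0 were 13 of the 17, beside 48.1% of all probe sets. Of the 6 treated scores 3 lay above the vehicle range and 0 below it. Cyp3a23-3a1, the standard PXR marker of the rat, had 0.20 (0.02 to 0.39), with treated signals of 12.65 to 13.19 against 12.43 to 12.98. The epoxide hydrolase Ephx1 had 0.05 (-0.09 to 0.18), the glucuronosyltransferase Ugt2b1 0.16 (-0.07 to 0.39) and the exporter Abcc3 0.24 (-0.04 to 0.52). The vehicle means of Cyp3a23-3a1 (12.65) and Ephx1 (12.73) lie close to that of Cyp1a2 (12.81), near the top of the array's range. Their intervals therefore bound the signal more than the transcript. Cyp2b1, the standard CAR marker, had no probe set that names it alone. Of 17 measured Nrf2 targets, the antioxidant genes, 15 were bounded; the exceptions were Nqo1 and Gpx2 (0.27, -0.08 to 0.62). Gclc and Gclm of glutathione synthesis had -0.05 and 0.11, and the exporter Abcc4 had 0.27 (0.03 to 0.51) with signals of 5.69 to 6.13 against 5.31 to 5.69. For PPARalpha, 14 of 16 were bounded, among them Cyp4a1 at -0.08 (-0.35 to 0.18), the fatty acid binding protein Fabp1 at -0.01 (-0.08 to 0.05) and Acadm of fatty acid oxidation at 0.00 (-0.07 to 0.07). The hormone Fgf21 was not, at -0.88 (-2.31 to 0.56).

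Damage responses were bounded in most members. Of 12 measured p53 targets 10 were bounded, such as Mdm2 (-0.02) and Ccng1 (0.12, -0.02 to 0.27). Cdkn1a, the p21 cell cycle inhibitor, was not, at 0.08 (-0.45 to 0.62), with treated signals of 7.14, 7.09, 7.43, 9.31, 7.49 and 7.54 against 6.86 to 8.19, so that replicate 4 alone lay above the vehicle range. In the unfolded protein and ATF4 list 12 of 18 were bounded, including the chaperone Hspa5 (-0.06, -0.18 to 0.07), while Asns and Trib3 of amino acid stress had -0.55 (-1.26 to 0.15) and 0.25 (-0.65 to 1.16). Acute phase genes were bounded in 13 of 15, and Fgg and Hp had 0.01 and -0.01. For thyroid hormone action 7 of 8 were bounded, with the deiodinase Dio1 at -0.17 (-0.36 to 0.02). Fatty acid synthesis had a median of -0.14, 4 of 19 above 0 and 13 bounded. That median was -0.074 with vehicle replicate 5 left out, -0.089 with treated replicate 1 left out and -0.20 with vehicle replicate 1 left out. Fasn had -0.22 (-0.60 to 0.16).

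**Figure D4:**
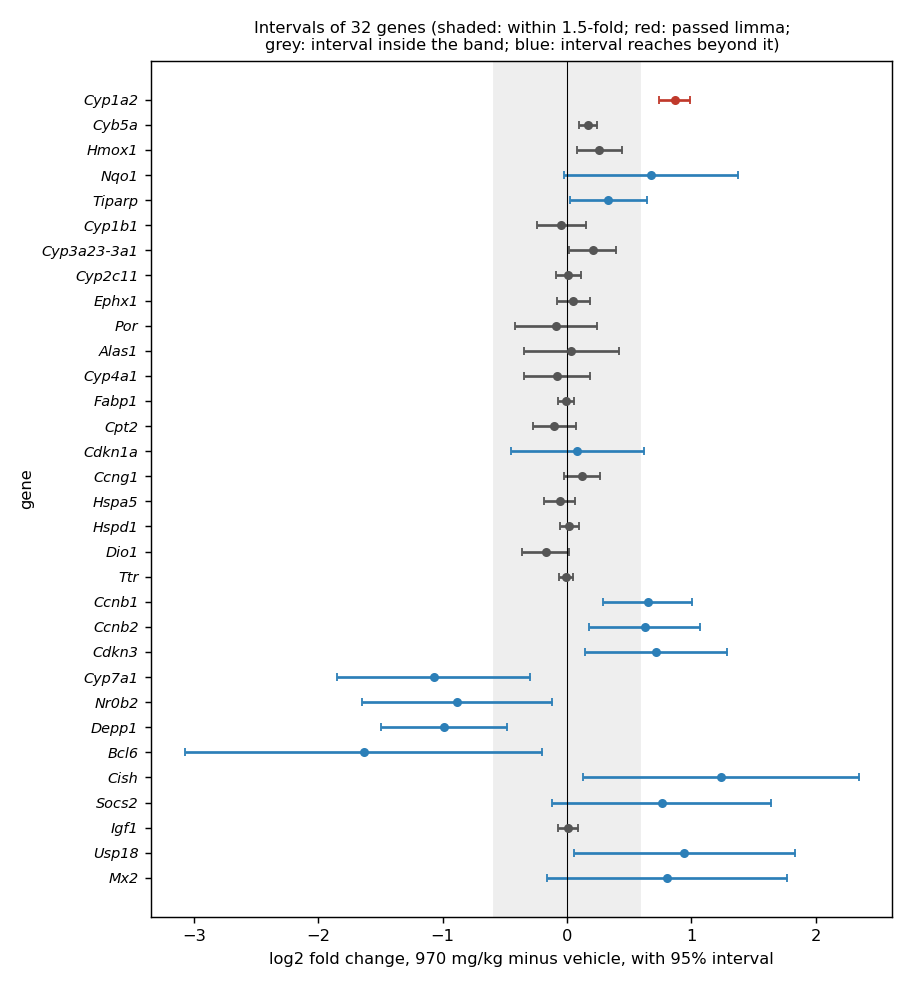
Log2 fold change (points) and 95% interval (bars) of 32 genes, with the shaded band marking 1.5-fold in either direction; n = 6 per group. Cyp1a2 (0.86, 0.74 to 0.99) lies wholly outside the band, Cyb5a (0.17, 0.10 to 0.24) wholly inside it above 0, and the intervals of Bcl6, Cish and Cyp7a1 span from within the band to well beyond it.

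Cell type markers were read in mixed tissue, where fewer cells of a type and less RNA per cell cannot be told apart. Hepatocyte markers had a median of -0.01 with 10 of 10 bounded. Endothelial markers were below 0 in 9 of 10, with a median of -0.09, and all 10 were bounded; Emcn had -0.22 (-0.41 to -0.03) and Fcgr2b -0.20 (-0.38 to -0.02), and 4 of 6 treated scores lay below the vehicle range. Macrophage markers were above 0 in 12 of 14 with a median of 0.19, or 0.098 with vehicle replicate 4 left out, and 0 of 6 scores left the vehicle range. Cd5l and Clec4f of Kupffer cells had 0.40 (-0.05 to 0.85) and 0.28 (-0.06 to 0.63). T and NK cell markers had a median of 0.07 with 2 of 6 scores above the vehicle range, and 0.12 once vehicle replicate 1, or 0.15 once treated replicate 2, was left out. Stellate cell markers had -0.02 with 0 of 6 outside the range, and from -0.11 (without vehicle replicate 6) to 0.04 with 1 array left out. Of 6 pancreatic and 4 adipocyte markers measured, 0 reached the median level when averaged over the 36 arrays. The adipocyte and endothelial lipid-binding gene Fabp4 had -0.90 (-1.71 to -0.10, limma adjusted p = 0.966) and was not bounded, with vehicle signals of 4.01 to 6.72 and treated signals of 3.96 to 5.02.

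Counted by animals, the AhR targets, through the Cyp1a pair, were the 1 list of 34 whose 6 treated scores all lay above the vehicle range, from 0.98 to 1.39 against -0.06 to 0.15. In 0 lists did all 6 lie below it. Bile acid genes had 5 of 6 below, but with a list median of -0.02 and only Cyp7a1 and Nr0b2 not bounded. Endothelial markers had 4 of 6 below, and mitosis and the AhR machinery had 4 of 6 above, each with 1 below. Replicate 4, the rat of highest Cyp1a1 and of the array furthest from its group, was also the highest treated rat in Cyp7a1, Nr0b2, Por (9.45, the others at most 8.53) and Cdkn1a, and replicate 3, the rat of lowest Cyp1a1, was the highest in the mitosis genes. With 6 rats these orders are a description.

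**Figure D5:**
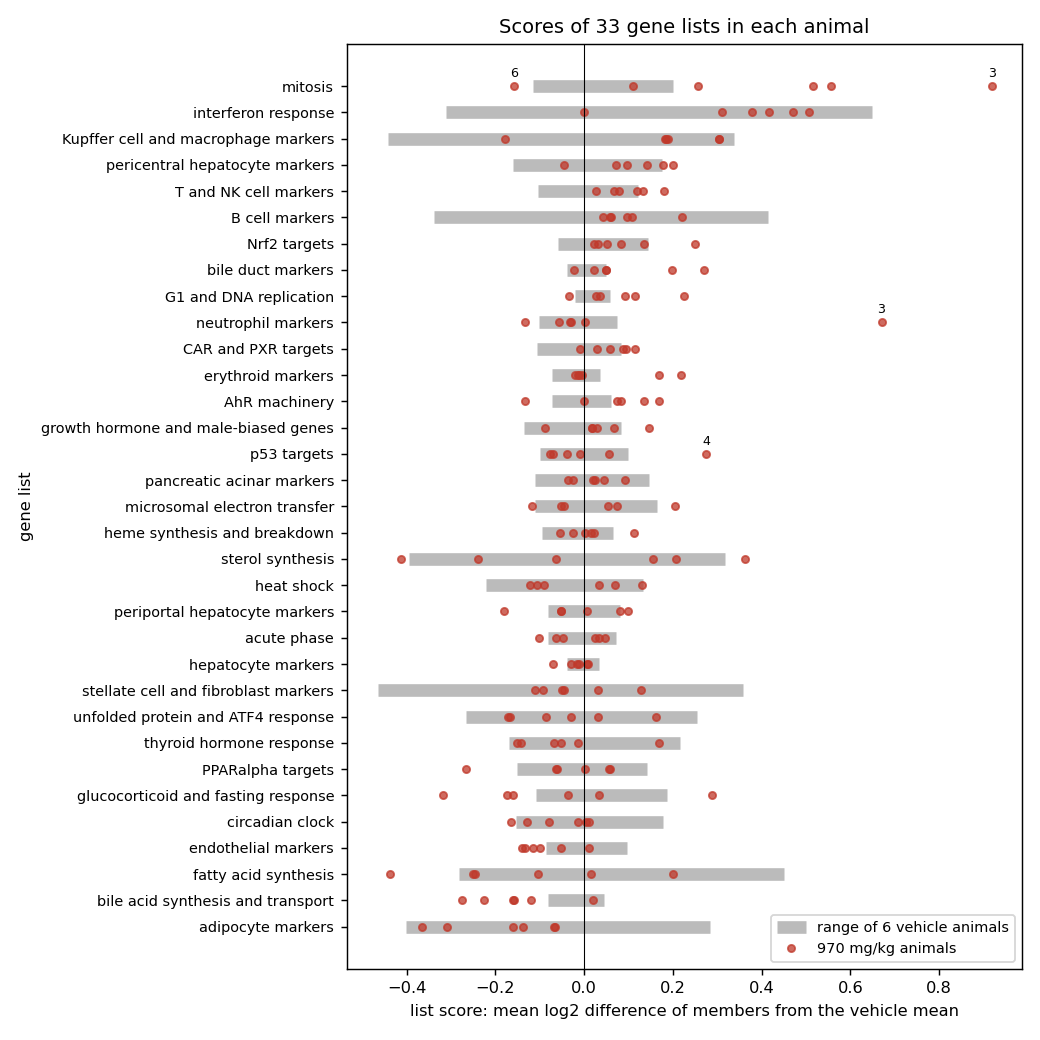
Each row is 1 of 33 gene lists (the AhR targets are left out for scale); the horizontal axis is the list score, the mean over members of the log2 difference from vehicle, with grey bars for the range of the 6 vehicle rats and red points for the 6 rats at 970 mg/kg. The mitosis scores spread from -0.16 to 0.92, replicate 3 is the far point among the neutrophil markers (0.67), and the interferon points all lie within a wide vehicle range.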

How the data were processed

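The samples were 36 liver arrays in 6 dose groups of 6, of which the 970 mg/kg and vehicle groups were compared. The deposited table holds a log2 signal for each probe set, made by the authors with RMA and the affy package per the submitters' processing notes, with versions not stated. RMA corrects background and quantile-normalizes arrays, which can shrink folds at low and very high signal. The number of arrays limits the precision. Missing values numbered 0, and 57 control probe sets were left out. Gene names come from the platform annotation, 20758 of 20826 with an Entrez ID in the RefSeq table.

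A linear model over all 36 arrays was fitted with limma 3.58.1 in R 4.3.3 (lmFit, eBayes, two-sided, Benjamini-Hochberg over 31042 probe sets, threshold 0.05), with no filter on low values. The fit was tested on simulated data. The members, the 34 lists and the tests were chosen with earlier results of these data known. Where a gene had several probe sets, the brightest on average stood for it. Named were the genes that passed, the marker genes Cyb5a and Ccnb1, a panel of 20, up to 8 non-overlapping genes per direction by p, and per list 3 members by p and 2 by level; any others were chosen after their values were seen. Alternatives covered the samples in the fit, a replicate block, 2 normalizations, array weights, variance priors, a beta-actin covariate, a filter at the median level, equivalence tests, probe set means and each sample left out.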

Additional observations from a re-analysis of the deposited data

Results flagged for a closer look

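In groups of 6 rats, 15 of 136 group values examined held a sample set far apart from the other 5 (a gap of over 0.625 of the group's whole range); chance gives about 1 in 20. At 970 mg/kg the single samples were at 9.31 in Cdkn1a (replicate 4, group median 7.46), 9.75 in Nqo1 (replicate 6, median 8.06), 12.96 in Ephx1, 12.38 in Ugt2b1, 7.51 in Dab2 and 6.99 in Dpy19l3. In vehicle they were at 8.96 in Nqo1 (replicate 5, median 7.34), 10.52 in Cyp7a1 (replicate 6, median 11.61) and 4.43 in Smc4. Among list scores, the single vehicle samples were at 0.15 for AhR targets, 0.059 for G1 and DNA replication and -0.22 for heat shock. The single treated samples were at 0.67 for neutrophil markers (replicate 3, median -0.03), -0.18 for macrophage markers and 0.22 for B cell markers.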

How the results depend on the processing

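Cyp1a1 and Cyp1a2 passed limma under every alternative run, and 0 results reversed. Cyb5a was added by the robust intensity trend, by variances without moderation and by the filter on probe sets at or above the median level. Leaving out 1 sample gave 2 to 3 calls: Vamp1 was added without vehicle replicate 4, and 1 unnamed probe set without vehicle replicate 2 or 970 mg/kg replicate 6. Probe sets bounded within 1.5-fold numbered 30190 to 30318 with 1 sample left out, 30505 by adjusted equivalence tests, and 14968 of 15521 under the filter, which tests fewer probe sets. Non-overlapping probe sets numbered 100 to 169 with 1 sample left out, which fewer samples allow, and 33 under the filter. With the replicate block 2 probe sets passed and 30357 were bounded; residuals of vehicle and 970 mg/kg samples with the same number correlated at a mean r of 0.00482 (-0.10 to 0.06), so the numbers were not taken as pairs. Of 3267 values of 161 named genes, 3260 kept their side of the threshold and their size, 2 (Cyb5a) newly passed and 5 moved when a gene's probe sets were averaged. A narrow interval near background or near the top of the scale bounds the signal, not the transcript.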
